A study of Mus musculus with 3 samples.

Results

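Weakly GFP positive cells (GFP+) of the neonatal mouse olfactory epithelium were compared with GFP negative cells (GFP-) of the same tissue, on 1 microarray each. Of the probe sets of a gene, the one whose signal was highest on average over the 3 arrays of the study stood for it, signals below a floor of 104 were raised to that floor, and the log2 ratio of GFP+ to GFP- was taken. The floor is the median of all non-control probe sets on the 3 arrays pooled. Of the 18193 genes with 1 symbol on the array, 12196 lay above the floor on at least 1 of these 2 arrays and are described here, and 5997 lay under it on both. Each fraction was measured once, so nothing was tested, and every difference below is one between these 2 arrays with no replicate check.

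All cells came from Tgn1-2G transgenic mice of both sexes at postnatal days 5 to 8, and were separated by fluorescence-activated sorting. The GFP+ array was made from 1300000 weakly positive cells and the GFP- array from 6800000 negative cells. The array of the remaining fraction, GFP+++, was made from 1000000 strongly positive cells. The GFP+++ signals are given beside the other 2 where they help to place a gene. Each fraction is labelled with the number 32, taken here to be the mice pooled, and the labels do not say whether the fractions shared animals. By the submitters' design, GFP+++ was enriched in immature neurons, GFP+ was slightly enriched in mature neurons, and GFP- kept all cell types of the epithelium with fewer immature neurons. In this transgene, as known from other work, control elements of Neurog1 drive GFP. Neurog1 is a proneural factor that acts in olfactory progenitors, so GFP marks cells by their history and not by a mature function.

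Olfactory sensory neurons (OSN) are made throughout life from basal cells. A new neuron first grows an axon to the olfactory bulb. It later adds odorant-sensing cilia at its dendrite and a glutamatergic terminal in the bulb, together with the channels that fire and shape action potentials. Around the neurons stand sustentacular cells, which carry detoxifying enzymes, Bowman's glands, which secrete the mucus with its odorant-binding proteins, microvillar cells and basal stem cells. Below lie connective tissue, vessels, ensheathing glia and the turbinate bone.

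Both arrays held neurons at all ages as well as other cells. Omp, the olfactory marker protein of mature OSN, gave 10615 in GFP+ against 7748 in GFP- and 5041 in GFP+++. Gap43, a growth-associated protein found in immature OSN, gave 6006 in GFP+ against 6395 in GFP- and 11233 in GFP+++. Neurog1 itself gave 1363 in GFP+ against 1202 in GFP- and 1492 in GFP+++. At the scaling used, these 3 genes differed by less than 1.5-fold between GFP+ and GFP-. For Omp this depended on the scaling. Its log2 fold of 0.45 became 0.59 with the array medians made equal and 0.73 with quantile normalization, both past 1.5-fold. Gap43 had a log2 fold of -0.09, and 0.05 with either of these scalings, so the immature marker did not separate the 2 fractions. Sustentacular and gland genes were bright in both, for example Cyp2g1, a sustentacular cytochrome P450, with 10078 in GFP+ and 15539.5 in GFP-.

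The 2 arrays were alike for most genes, and part of the remainder moved with brightness. The median log2 fold over all genes was -0.01, with quartiles of -0.25 and 0.20, and 88.2% of genes lay within 1.5-fold. Of all genes, 48.8% lay above 0, which is the background for such counts in the lists below. The median was -0.15 for the 1867 genes with a mean signal of up to 200, 0.07 for the 2282 genes between 1000 and 2000, and -0.42 for the 121 genes above 10000. The brightest signal was 15274 in GFP+ and 23339 in GFP-. Control probe sets for 18S ribosomal RNA had a mean of 4977 in GFP+ and 8357 in GFP-, and the 3' to 5' signal ratio of beta-actin, a measure of RNA integrity, was 1.31 and 1.43. In 4979 genes, more than 1 probe set lay above the floor in both fractions, and the log2 folds of the probe sets of such a gene varied with a pooled SD of 0.24, which covers the array measurement and nothing of the spread between animals or sorts.

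**Figure D1:**
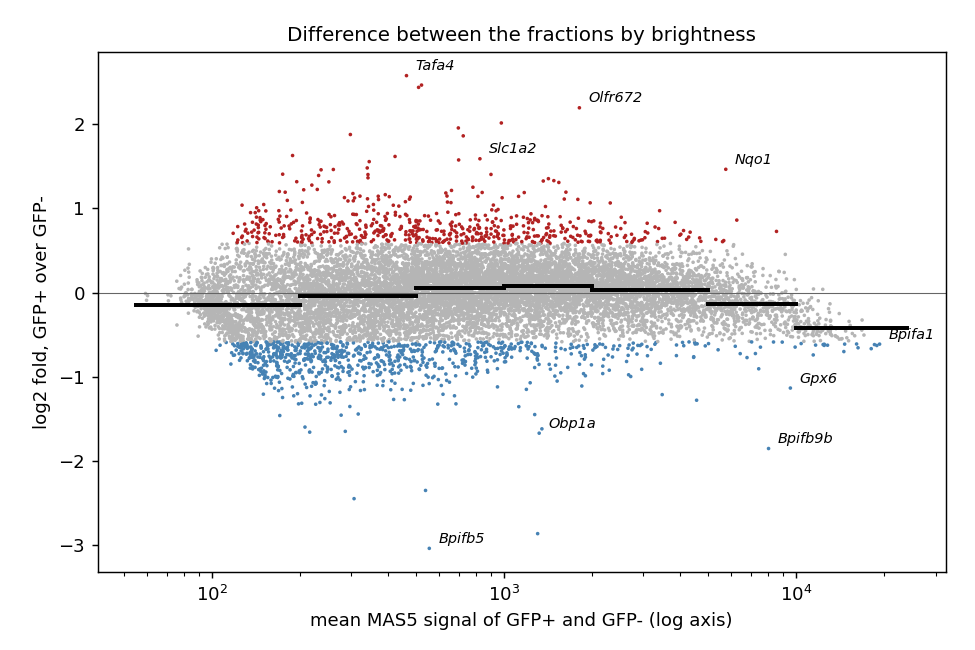
Each point is 1 of the 12196 genes, with the mean signal of GFP+ and GFP- on a logarithmic x axis and the log2 fold of GFP+ over GFP- on the y axis. Red and blue points are at least 1.5-fold higher and lower in GFP+, black bars are the median of each brightness range, and the bar above a signal of 10000 lies at -0.42.

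At a fold of 2, 74 genes were higher in GFP+ (0.607% of the genes compared) and 98 were lower (0.804%). At a fold of 1.5, 570 were higher (4.67%) and 870 were lower (7.13%). These shares are the background for the counts of each gene list below. Among the 570, 29 had a GFP- signal under the floor, and among the 870, 94 had a GFP+ signal under it, so that their folds are lower bounds. Folds in parentheses below are those between GFP+ and GFP-. Where a gene past 2-fold had further probe sets above the floor, they shared its direction without exception in 18 of 19 cases for the higher genes and 27 of 29 for the lower. At 1.5-fold they did so in 157 of 194 and 259 of 295 cases. The balance of the directions depended on how the arrays were scaled: with equal medians in place of equal trimmed means, the median of all genes moved to 0.13, and the counts became 130 higher and 46 lower at 2-fold and 1077 higher and 458 lower at 1.5-fold. List medians are therefore read against the median of all genes. The counts of lists past 1.5-fold moved too with equal medians. Most lower counts fell, as from 37 to 25 for fibroblast, 17 to 13 for gland, 13 to 6 for horizontal basal cell, 10 to 5 for glial and 7 to 2 for vessel genes. That of bone, cartilage and muscle stayed at 11. Higher counts rose, as from 10 to 17 for synaptic vesicle and 21 to 25 for motile cilium genes. The threshold cut through a continuous range, with log2 folds of 1.01 and 0.99 for the higher genes just inside and just outside 2-fold.

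**Figure D2:**
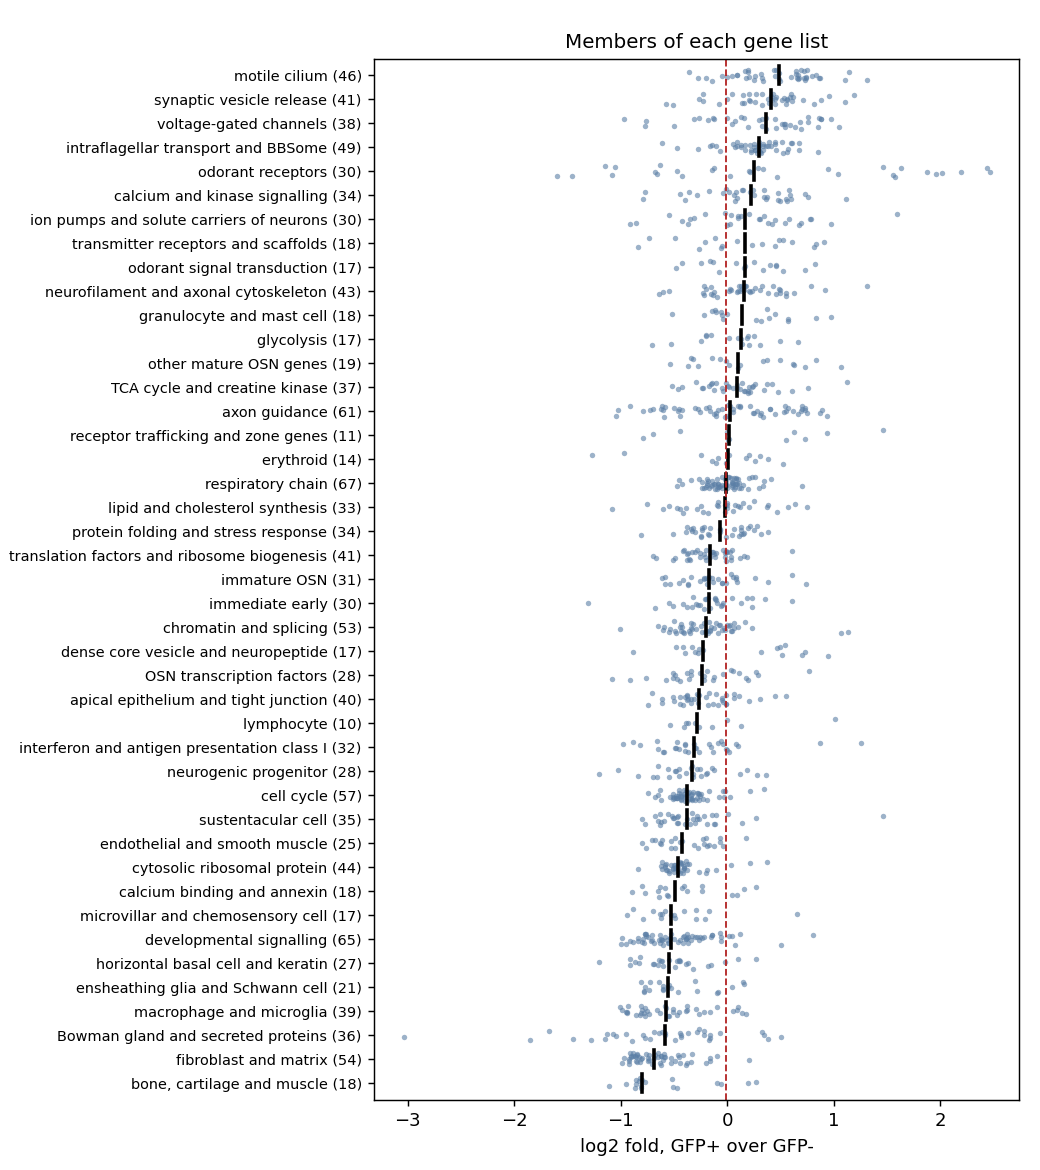
Each row is 1 gene list with its number of genes above the floor, points are the log2 folds of its members, black bars are list medians, and the dashed line is the median of all genes. The cilium, synaptic vesicle and channel lists lie at the top, and the fibroblast and bone lists at the bottom, with medians from 0.48 to -0.81.

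The genes for turning odorant binding into current were slightly higher in GFP+. Of 17 measured members, 11 lay above 0 and 2 passed 1.5-fold, with a median of 0.16, and 0.44 after quantile normalization, which evens out the brightness trend. Cnga4, a subunit of the cyclic nucleotide-gated channel, gave 3951 in GFP+ against 2232 in GFP- and 1749 in GFP+++ and was 1.77-fold higher in GFP+ than in GFP-. Slc24a4, the exchanger that clears calcium from the cilium after a response, gave 602 in GFP+ against 363 in GFP- and 262 in GFP+++ (1.66-fold). Both were lowest in GFP+++ and highest in GFP+. The folds of the brightest members depended on the scaling. Gnal, the olfactory G protein alpha subunit, had a log2 fold of 0.15, and 0.48 with quantile normalization. Slc12a2, a chloride importer, Stoml3, a cilium membrane protein, and Gnb1, a G protein beta subunit, had log2 folds of -0.17, -0.13 and -0.25 that turned to 0.21, 0.34 and 0.24 with quantile normalization. Slc12a2 also turned to 0.20 with the median over probe sets. In bulk fractions such as these, more cells of a type and more RNA per cell cannot be told apart.

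Of the 19 measured genes that other work places in mature OSN, 5 were at least 1.5-fold higher and 0 lower. Faim2, an inhibitor of Fas-mediated cell death, gave 3127 in GFP+ against 1494 in GFP- and 1620.2 in GFP+++ (2.09-fold). Carns1, the synthase of carnosine, a dipeptide abundant in OSN, gave 4937 in GFP+ and 2768 in GFP- (1.78-fold), and Cartpt, a neuropeptide precursor, 10681 in GFP+ and 6452 in GFP- (1.66-fold). Lrrc3b and Pcp4l1 were 1.54-fold and 1.54-fold higher. The list did not move as a whole, since its median was 0.10 and S100a5, a calcium-binding protein of OSN and its brightest member, had a log2 fold of -0.33 (14929 in GFP+ and 18708 in GFP-), which turned to 0.21 with quantile normalization.

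Synaptic vesicle genes were higher in GFP+ as a list, with a median of 0.41. Of 41 measured members 34 lay above 0 and 10 (24.4%) were at least 1.5-fold higher, while 0 were lower by that much. Rab3b, a vesicle GTPase, gave 2267 in GFP+ against 991 in GFP- and 2054 in GFP+++ and was 2.29-fold higher in GFP+ than in GFP-. Syngr3, a membrane protein of synaptic vesicles, gave 508 in GFP+ against 236 in GFP- and 443 in GFP+++ (2.15-fold). Napb, an attachment protein for the factor that takes SNARE complexes apart, gave 848 in GFP+ and 437 in GFP- (1.94-fold). Syn2, a synapsin that tethers vesicles, gave 1651 in GFP+ against 896 in GFP- and 583 in GFP+++ (1.84-fold). Bsn, the active zone scaffold bassoon, was 1.76-fold higher and Syp, synaptophysin, 1.64-fold higher. Amph, Sv2a, Sv2c and Rims2 were 1.54-fold, 1.53-fold, 1.52-fold and 1.51-fold higher. Syn2 was lowest in GFP+++, while Rab3b and Syngr3 were nearly as high there as in GFP+. With the median over probe sets, Bsn and Rims2 were under 1.5-fold, at 0.50 and 0.30 on the log2 scale. Among the brightest members, Syt11 and Snap25 were within 1.5-fold, at 0.20 and 0.32 on the log2 scale, and Snap25 turned to -0.15 with the median over probe sets.

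Channel genes spread more widely around their median of 0.36. Of 38 measured subunits, 11 were at least 1.5-fold higher (28.9%) and 3 were lower by as much. Among sodium channels, Scn8a, an alpha subunit of mature axons, gave 481 in GFP+ against 233 in GFP- and 221 in GFP+++ (2.07-fold). Scn9a, the main sodium channel of OSN, gave 4256 in GFP+ against 2511 in GFP- and 4072 in GFP+++ (1.69-fold), and was thus nearly as high in GFP+++ as in GFP+. The auxiliary subunits Scn4b and Scn3b gave 4982 in GFP+ and 3079 in GFP-, and 6453 in GFP+ and 4164 in GFP-. Not all further probe sets of a named gene went the same way as the one used. Examples are Scn9a, where 3 of 4 did, Kcnn1 (0 of 1), the vesicle gene Rims2 (1 of 2) and Marcks, an actin linker named below (3 of 5). Slc12a2 and Snap25, named above, are further examples, since their medians over probe sets had the opposite sign. Among potassium channels, Kcnc4, a rapidly inactivating channel of axons and terminals, gave 4517 in GFP+ against 2301 in GFP- and 1717 in GFP+++ (1.96-fold), while Kcnab2, Kcnn1, Kcns3, Kcna6 and Kcnh3 were between 1.61-fold and 1.85-fold higher. Hcn2, a channel opened by hyperpolarization, gave 512 in GFP+ against 279 in GFP- and 191 in GFP+++ (1.84-fold). With the median over probe sets, Scn8a, Kcnn1 and Kcnh3 were under 1.5-fold, at 0.31, 0.39 and 0.52 on the log2 scale. The 3 lower subunits were also potassium channels: Kcnd2 gave 128 in GFP+ and 252 in GFP-, Kcna1 193 in GFP+ and 329.6 in GFP- and Kcnj3 112 in GFP+ and 189 in GFP-, and all 3 were under the floor in GFP+++. The list does not hold every channel gene, and those outside it are not in these counts. Among them, Kcns2 gave 119 in GFP+ and 274 in GFP- (log2 fold -1.20). Kcne4 and Kcnn4, named below, were at -1.31 and -1.05.

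The other neuronal lists lay nearer the middle. Of 34 calcium and kinase signalling genes, 4 were at least 1.5-fold higher and 2 lower, with Necab3 (466 in GFP+ and 215 in GFP-) and Vsnl1, a neuronal calcium sensor (2741 in GFP+ and 1616 in GFP-), at the top and Prkcb, a protein kinase C (157 in GFP+ and 271 in GFP-), at the bottom. Among transmitter receptors, Drd2, the dopamine receptor that damps release from OSN terminals, gave 1442 in GFP+ against 767 in GFP- and 667 in GFP+++ (1.88-fold), and Gabbr1, a GABA-B receptor subunit of the same terminals, gave 3330.0 in GFP+ against 2181 in GFP- and 2388 in GFP+++ (1.53-fold). Of the 55 such genes on the array only 18 lay above the floor, and 4 of them were at least 1.5-fold higher and 2 lower. Among transporters, Slc1a2, a glutamate transporter, gave 1242 in GFP+ against 412 in GFP- and 263 in GFP+++ and was 3.01-fold higher (log2 fold 1.59, and 0.84 with the median over probe sets), and Slc8a1, a sodium-calcium exchanger, gave 1177 in GFP+ against 729 in GFP- and 411 in GFP+++ (1.61-fold). Eef1a2, the elongation factor isoform of mature neurons and muscle, gave 4047 in GFP+ and 2659 in GFP- (1.52-fold), whereas its ubiquitous counterpart Eef1a1 gave 13975 in GFP+ and 22174 in GFP- (log2 fold -0.67, and -0.09 with quantile normalization). Celf4, an RNA-binding protein of neurons, gave 2669.8 in GFP+ and 1275 in GFP- (2.09-fold), and Celf3 of the same family gave 520.0 in GFP+ and 1043 in GFP- (2.01-fold lower).

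Further lists of neuronal parts each held a few genes past 1.5-fold. In the axonal cytoskeleton, 4 of 43 genes were higher and 2 lower (median 0.15). Dync1i1, a cytoplasmic dynein chain, gave 344 in GFP+ against 182 in GFP- and 300.4 in GFP+++ (1.89-fold higher), and Epb41l1, a membrane skeleton protein of neurons, 1342 in GFP+ against 777 in GFP- and 578 in GFP+++ (1.73-fold higher). Nefl, the light neurofilament chain, gave 186 in GFP+ against 292 in GFP- and 37.6 in GFP+++ and was 1.56-fold lower in GFP+. Dense core vesicle genes split, with 8 of 17 above 0 and a median of -0.23, which became 0.05 without ambiguous probe sets. Peptide genes outside this list are not in the count, among them Tac4, named below, and Sct, at -1.32 and -1.07 on the log2 scale. Pcsk1n, an inhibitor of a prohormone convertase, gave 278 in GFP+ against 144 in GFP- and 166 in GFP+++ (1.93-fold higher), and Chgb, the granin chromogranin B, 1183 in GFP+ against 728 in GFP- and 499 in GFP+++ (1.63-fold higher). Pcsk5, a convertase of other tissues too, gave 83.5 in GFP+ and 192 in GFP- and was at least 1.84-fold lower. With the floor at the 65th percentile Nefl and Pcsk1n were under 1.5-fold, at -0.08 and 0.01 on the log2 scale. Of the pumps and carriers, Atp6v0a1 and Atp6v1g2, subunits of the proton pump that fills vesicles, gave 1244 in GFP+ and 634 in GFP-, and 564 in GFP+ and 327 in GFP- (1.96-fold and 1.72-fold higher, though Atp6v0a1 was at 0.38 on the log2 scale with the median over probe sets), and Slc22a17 was 1.72-fold higher. At the postsynaptic side of neurons in general, the adhesion gene Nlgn3 gave 453 in GFP+ and 257 in GFP- (1.76-fold higher) and the scaffold gene Dlgap3 469.7 in GFP+ and 263 in GFP- (1.78-fold higher), while Lrrtm1 gave 109 in GFP+ and 195 in GFP- (1.79-fold lower).

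**Figure D3:**
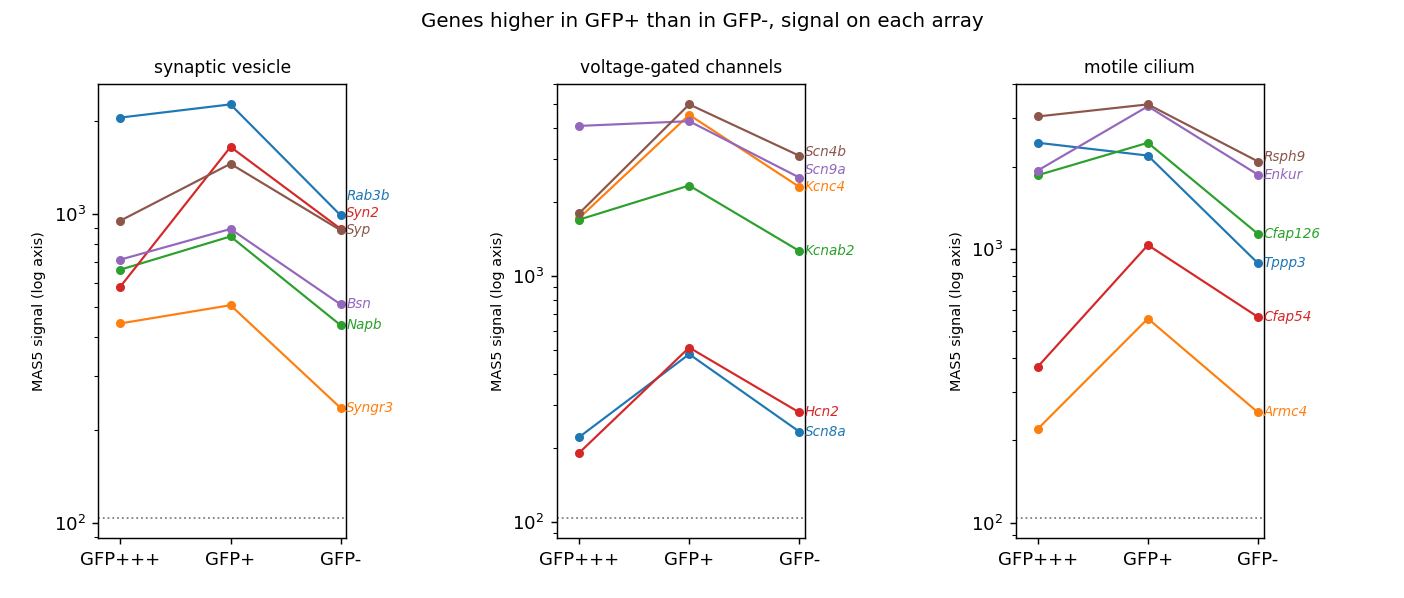
Signal of 6 genes each from the synaptic vesicle, voltage-gated channel and motile cilium lists on the GFP+++, GFP+ and GFP- arrays, on a logarithmic axis, 1 array per point, with the floor as a dotted line. All 18 genes are higher in GFP+ than in GFP-, and Tppp3 is the 1 gene with its highest signal in GFP+++ (2446).

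Motile cilium genes were higher in GFP+, with a median of 0.48, the highest of the lists at the floor used; with the floor at the 40th percentile the odorant receptors, at 0.62, exceeded it. Of 46 measured members, 40 lay above 0, 21 (45.7%) were at least 1.5-fold higher and 0 were lower by that much. These genes build the beating axoneme of multiciliated respiratory cells, and a part of them is also known from the cilia of OSN. Tppp3, a tubulin-binding protein, gave 2195 in GFP+ against 886 in GFP- and 2446 in GFP+++ (2.48-fold). Armc4, needed to dock outer dynein arms, gave 557 in GFP+ against 253 in GFP- and 219.9 in GFP+++ (2.2-fold), and Cfap126, a polarity protein of ciliated cells, gave 2445 in GFP+ against 1135 in GFP- and 1861 in GFP+++ (2.15-fold). Cfap54, Ccdc40 and Enkur were 1.83-fold, 1.81-fold and 1.78-fold higher, and the radial spoke genes Rsph4a and Rsph9 1.68-fold and 1.62-fold. Foxj1, the master factor of motile cilia, gave 617 in GFP+ against 390.3 in GFP- and 367 in GFP+++ (1.58-fold), and the heavy chain Dnah9 gave 409 in GFP+ against 259 in GFP- and 531 in GFP+++ (1.58-fold). The bright members Tubb4b, a beta tubulin, and Rfx3, a factor that binds X-boxes, went the other way, at -0.20 and -0.36, though Tubb4b turned to 0.19 with quantile normalization. Which share of these differences belongs to respiratory ciliated cells and which to OSN was not tested.

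The transport machinery shared by sensory and motile cilia was higher by less. Of 49 measured genes of intraflagellar transport, the BBSome and the transition zone, 42 lay above 0 with a median of 0.30, but 5 passed 1.5-fold. These were Ttc8 and Bbs4, BBSome subunits (1.81-fold and 1.6-fold), Tulp3, an adaptor for membrane cargo (1.59-fold), and Ift140 and Ift122 of the retrograde transport complex (1.52-fold and 1.52-fold). With the median over probe sets Bbs4 and Tulp3 were at 0.19 and 0.40 on the log2 scale, and with quantile normalization Ift140 and Ift122 were at 0.56 and 0.55, all under 1.5-fold. Gli2, a Hedgehog effector that travels through cilia, was the 1 gene past 1.5-fold in the other direction (102 in GFP+ and 160.1 in GFP-, at least 1.53-fold lower). The median of all genes with mean signals from 1000 to 2000 was 0.07, and 61.4% of them lay above 0. The part of brightness in the values of the transport list was not tested.

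Promoter sequences from RefSeq (build GRCm38.p6), from 250 bases before to 50 bases after the start, were at hand for 9869 of the 12196 genes. The motif planned for these promoters was that of the Ebf factors of OSN, TCCCNNGGGA, which reads the same on both strands. It stood in 131 promoters of all genes compared (1.33%), in 7 of 453 of the genes higher by 1.5-fold or more (1.55%) and in 5 of 652 of those lower by as much (0.767%), and in 0 promoters of the synaptic vesicle (33), channel (30), transport (45) and motile cilium (36) genes. A share this close to the background is no result about the genes that differed.

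After the values of the cilium lists had been seen, the same promoters were searched on both strands for the X-box, the motif of RFX factors, in 6 spellings, and all 6 are given because they differ. As GTTGCCNNGGNAAC it stood in 5 of 45 transport and 1 of 36 motile cilium promoters, against 0.517% of all genes compared. As GTTNCCNNGGNAAC it stood in 5 and 2, against 0.740%. With 1 base in the gap, GTTNCCNGGNAAC, it stood in 1 and 1, against 0.263%. As the partial motif GTTNCC with ATGG directly after it, it stood in 2 and 2, against 1.22%, and as the loosest full spelling, GTNNCCNNGGNAAC, in 13 and 6, against 2.18%. The short 5' piece GTTNCC on its own stood in 37 and 27, against 52.1% of all genes compared. The last of the full spellings overlaps the first 2 and gives the highest counts of the full ones. Among the genes at least 1.5-fold higher, the share ran from 0.221% to 52.3% over the spellings, and for GTTGCCNNGGNAAC it was 0.662% (3 of 453). A match is a description of the letters and shows no binding.

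The promoters below hold the strictest spelling and are those of the 3 cilium genes with it that had the largest log2 folds, so they were chosen after the values were seen. Capitals mark the match. Pifo, a gene of cilium assembly, lies at chr3:106001448-106001747 on the minus strand, and its match, on the strand opposite to the gene, begins 20 bases before the start. Cep19, a centrosomal gene, lies at chr16:32099539-32099838 on the plus strand, with the match after the start. Bbs7, a BBSome subunit, lies at chr3:36613340-36613639 on the minus strand, with the match 121 bases before the start.
Pifo: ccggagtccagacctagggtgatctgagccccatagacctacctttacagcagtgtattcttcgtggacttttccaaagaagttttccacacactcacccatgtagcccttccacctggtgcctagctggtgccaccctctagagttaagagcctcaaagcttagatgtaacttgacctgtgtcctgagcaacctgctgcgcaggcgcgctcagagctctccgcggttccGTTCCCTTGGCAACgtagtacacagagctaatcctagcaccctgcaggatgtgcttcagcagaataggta
Cep19: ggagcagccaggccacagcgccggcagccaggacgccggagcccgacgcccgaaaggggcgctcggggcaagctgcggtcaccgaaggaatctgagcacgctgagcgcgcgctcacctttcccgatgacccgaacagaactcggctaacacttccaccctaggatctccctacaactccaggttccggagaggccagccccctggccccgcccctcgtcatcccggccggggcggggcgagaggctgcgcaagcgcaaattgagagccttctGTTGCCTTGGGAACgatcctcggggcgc
Bbs7: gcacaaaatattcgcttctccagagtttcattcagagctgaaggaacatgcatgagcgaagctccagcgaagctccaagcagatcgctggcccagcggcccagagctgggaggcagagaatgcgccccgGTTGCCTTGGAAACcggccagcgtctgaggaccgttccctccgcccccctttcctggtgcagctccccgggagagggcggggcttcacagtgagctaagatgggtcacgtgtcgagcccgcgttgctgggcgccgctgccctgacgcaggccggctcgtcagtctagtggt
On the arrays Pifo gave 4325 in GFP+ against 2763 in GFP- and 3300.2 in GFP+++ (1.57-fold higher in GFP+ than in GFP-), Cep19 gave 3593 in GFP+ against 2700.1 in GFP- and 3121 in GFP+++ (1.33-fold) and Bbs7 gave 1324 in GFP+ against 1013 in GFP- and 1196 in GFP+++ (1.31-fold). The last 2 lie within 1.5-fold.

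Odorant receptor genes held many of the largest differences and went both ways. Of 39 on the array, 30 lay above the floor, 12 were higher in GFP+ by 1.5-fold or more and 8 lower. Of the 30, 10 lay under the floor on 1 of the 2 arrays. Of the 10 class I receptors described, 5 were under the floor in GFP- and entered through their GFP+ signal alone, which fixed their direction, and the other 5 also lay above 0. With these bounds 6 passed 1.5-fold, led by Olfr65 (884 in GFP+ against 160.0 in GFP- and 259 in GFP+++, 5.52-fold) and Olfr672 (2974 in GFP+ against 649 in GFP- and 1574 in GFP+++, 4.58-fold). Of the 20 class II receptors, 6 were at least 1.5-fold higher, with Olfr73 (861 in GFP+ against 159 in GFP- and 1040.0 in GFP+++, 5.42-fold) and Olfr749 (1569.8 in GFP+ against 388 in GFP- and 1696 in GFP+++, 4.04-fold) first. The 8 lower receptors were all class II and included the neighbouring genes Olfr1507, Olfr1508 and Olfr1509, with 148 in GFP+ and 406 in GFP- for Olfr1509 (2.74-fold lower). Of the 20 class II receptors, 5 were also under the floor on 1 of the 2 arrays, which fixed their direction. Olfr1507 and Olfr288 were under it in GFP+ (98.7 and 101). With the floor at the 65th percentile Olfr1507 was no longer compared. Olfr1508 and Olfr1509 were then at -0.60 and -0.56 on the log2 scale, the latter under 1.5-fold. Of 33 vomeronasal and trace amine receptors on the array, Vmn2r29 alone lay above the floor.

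Genes of receptor trafficking and of the zones of the epithelium had no common direction. Of 11 measured, 7 lay above 0 and 4 below, 4 were higher and 2 lower by 1.5-fold or more, and the median was 0.01. Nqo1, a quinone reductase of dorsal OSN, gave 8432 in GFP+ against 3054 in GFP- and 8351 in GFP+++ and was 2.76-fold higher in GFP+. Ncam2 and Nrp2, adhesion and guidance genes of ventral OSN, gave 950.2 in GFP+ and 1540.5 in GFP-, and 1606 in GFP+ and 2781 in GFP-, and were 1.62-fold and 1.73-fold lower. Kirrel3, an adhesion molecule that sorts OSN axons, gave 488 in GFP+ and 255 in GFP- (1.91-fold higher). How far the zones from which the cells came account for these values was not tested.

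Guidance genes as a class were balanced, with 11 of 61 higher and 10 lower by 1.5-fold or more, and a median of 0.02. Genes on the higher side included Pcdh9 (1377 in GFP+ and 742 in GFP-), Efnb3 (553 in GFP+ and 328 in GFP-), Efna3 (2817 in GFP+ and 1733 in GFP-) and the semaphorin receptors Plxna1 (1805 in GFP+ and 1088 in GFP-) and Plxna4 (616 in GFP+ and 382 in GFP-). Genes on the lower side included the secreted cues Sema3d (269 in GFP+ against 556 in GFP- and 19 in GFP+++, 2.07-fold lower), Sema3c (139.6 in GFP+ against 264 in GFP- and 12.2 in GFP+++, 1.89-fold lower), Slit2 (501 in GFP+ and 753 in GFP-) and Ntn4 (176 in GFP+ and 271 in GFP-), together with the semaphorin receptors Plxna2 (135 in GFP+ and 275 in GFP-, 2.03-fold lower) and Nrp2, whose values are given above. Slit2 and Ntn4 were under 1.5-fold with equal medians. Sema3c and Sema3d were under the floor in GFP+++.

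The single largest fold in the higher direction was that of Tafa4, a small secreted protein, with 794 in GFP+ against 133 in GFP- and 359.9 in GFP+++ (5.97-fold). Them6 gave 1137 in GFP+ against 313 in GFP- and 514 in GFP+++ (3.64-fold), Slc37a1, a sugar phosphate carrier, 1309.8 in GFP+ against 495 in GFP- and 1046 in GFP+++ (2.65-fold), and Tox2, an HMG box factor, 639 in GFP+ against 208 in GFP- and 245 in GFP+++ (3.07-fold). Saa3, an acute phase protein, gave 501 in GFP+ against 179 in GFP- and 113 in GFP+++ (2.79-fold). With the floor at the 65th percentile the log2 fold of Tafa4 went from 2.58 to 1.53. Aspg, an asparaginase, and Tctex1d1, a dynein light chain of the Tctex1 family, were 2.62-fold and 2.57-fold higher, and both had signals under 200 in GFP- (128 and 192). With that higher floor Aspg, Hs3st3b1 and Ppp1r32 lost the 1.5-fold difference, at 0.29, 0.47 and 0.01. Stum and Hs3st3b1, a heparan sulfate sulfotransferase, were 2.64-fold and 2.76-fold higher, and both had their highest signal in GFP+++ (690.4 and 447). Among genes under the floor in GFP-, Ppp1r32 gave 277 in GFP+ and 72.6 in GFP- (at least 2.65-fold higher), Ccdc146, a centriolar and ciliary gene, 216 in GFP+ and 85.3 in GFP- (at least 2.07-fold), and Vpreb1, a surrogate light chain of B cell precursors, 209.9 in GFP+ against 74.7 in GFP- and 12.8 in GFP+++ (at least 2.01-fold). Vpreb1 was the 1 of 10 measured lymphocyte genes past 1.5-fold, and the median of that list was -0.29, turning to 0.13 with the floor at the 65th percentile.

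Secreted proteins of glands and mucus gave the largest differences in the lower direction. Of 36 measured genes, 17 (47.2%) were at least 1.5-fold lower in GFP+ and 0 higher, with a median of -0.58. Bpifb5, of the family of lipid-binding BPI fold proteins, gave 120.5 in GFP+ against 989 in GFP- and 26.2 in GFP+++ and was 8.21-fold lower. Its GFP+ signal lay just above the floor, and with the floor at the 65th percentile its log2 fold went from -3.04 to -1.84. Its relative Bpifb9b gave 3491 in GFP+ against 12602 in GFP- and 86.2 in GFP+++ (3.61-fold), and Bpifb3 2664 in GFP+ against 6463 in GFP- and 246 in GFP+++ (2.43-fold). The odorant-binding proteins Obp1a and Obp2a gave 631 in GFP+ against 2008 in GFP- and 125 in GFP+++, and 683 in GFP+ against 1864 in GFP- and 6.72 in GFP+++ (3.18-fold and 2.73-fold). Gpx6, a glutathione peroxidase of the olfactory mucosa, gave 5984 in GFP+ against 13128 in GFP- and 1464 in GFP+++ (2.19-fold), and the lipocalin Lcn3 741 in GFP+ against 1644 in GFP- and 25.4 in GFP+++ (2.22-fold). The order GFP+++ below GFP+ below GFP- held for each of these 7 genes. Among the channels and factors of gland cells, Kcnn4, a calcium-activated potassium channel, gave 159 in GFP+ and 328 in GFP- (2.06-fold), Ano1, the calcium-activated chloride channel of secretory epithelia, 892 in GFP+ and 1654 in GFP- (1.85-fold), and Sox9, a factor of gland cells that cartilage shares, 158 in GFP+ and 306 in GFP- (1.93-fold). Dmbt1 and Muc5b, large mucus glycoproteins, were 2.1-fold and 1.56-fold lower. The difference was smaller for Bpifa1, the brightest of all genes in GFP- (15274 in GFP+ and 23339 in GFP-, 1.53-fold), and was nil with quantile normalization. Xbp1, a factor of secretory cells, had a log2 fold of -0.17, turning to 0.09 with quantile normalization. Kcnn4, Sox9 and Dmbt1 were under 1.5-fold with the floor at the 65th percentile, at -0.25, -0.15 and -0.13 on the log2 scale.

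Other epithelial support cells followed with smaller differences. Of 35 sustentacular genes, 8 were at least 1.5-fold lower and Nqo1 was the 1 higher, with a median of -0.38. Cyp4b1 gave 406 in GFP+ and 705 in GFP- (1.74-fold lower), Gstm1, a glutathione transferase, 5882 in GFP+ and 9215 in GFP- (1.57-fold), and Ces1d, a carboxylesterase, 2458 in GFP+ and 3923 in GFP- (1.6-fold). Of 17 microvillar genes, 8 were at least 1.5-fold lower, among them Ascl3, a factor of microvillar cells (1159 in GFP+ against 2146 in GFP- and 328 in GFP+++, 1.85-fold), and Cftr, a chloride channel (173 in GFP+ and 299 in GFP-). Pou2f3, the factor of tuft-like chemosensory cells, was the 1 higher gene (164 in GFP+ and 88.5 in GFP-, at least 1.57-fold). Claudins, keratins and junction genes of the apical surface differed less, with 4 of 40 at least 1.5-fold lower and 0 higher. These were Cldn10, Cldn5, Ezr, which links the membrane of microvilli to actin, and Notch2 (1.68-fold, 1.63-fold, 1.53-fold and 1.53-fold). Ezr was under 1.5-fold with the median over probe sets, at -0.50 on the log2 scale. With equal medians the lower counts at 1.5-fold were 2 for sustentacular, 3 for microvillar and 1 for apical genes, and 2 apical genes were higher.

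Basal stem cell genes were lower in GFP+. Of 27 measured genes of horizontal basal cells, 13 (48.1%) were at least 1.5-fold lower and 0 higher, with a median of -0.55. Of the 27, 4 lay under the floor on 1 of the 2 arrays, which fixed their direction. The median was -0.47 among genes above the floor on both arrays, and -0.37 with the floor at the 65th percentile. The basal keratins Krt5 and Krt14 gave 336 in GFP+ against 542 in GFP- and 128 in GFP+++, and 271 in GFP+ against 511 in GFP- and 60.7 in GFP+++ (1.61-fold and 1.88-fold). Trp63, the factor that holds these cells in reserve, gave 377 in GFP+ against 611 in GFP- and 75.7 in GFP+++ (1.62-fold). Tnfrsf19, a receptor of stem cells in several epithelia, gave 187 in GFP+ against 341 in GFP- and 37 in GFP+++ (1.83-fold), and Itga6, the integrin chain that anchors basal cells, 888 in GFP+ and 1351 in GFP- (1.52-fold). With equal medians Krt5, Trp63 and Itga6 were just under 1.5-fold, at -0.55, -0.56 and -0.47 on the log2 scale. With the floor at the 65th percentile Tnfrsf19 was at -0.31. Pkp1, a desmosome plaque protein, gave 59.2 in GFP+ and 241 in GFP- and was at least 2.31-fold lower, with its GFP+ signal under the floor.

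Globose basal cells and dividing cells differed by less. Of 28 progenitor genes 6 were at least 1.5-fold lower and 0 higher, led by the placodal genes Eya2 (374 in GFP+ against 863 in GFP- and 204 in GFP+++, 2.31-fold) and Six4 (175 in GFP+ against 358 in GFP- and 81 in GFP+++, 2.04-fold), and by Kit, a receptor of progenitors (519 in GFP+ against 843 in GFP- and 229.8 in GFP+++, 1.62-fold). Of 57 cell cycle genes 5 were at least 1.5-fold lower and 0 higher, but 54 lay below 0 (median -0.38), the furthest being Ccnd1, cyclin D1, with 2905 in GFP+ and 4879 in GFP- (1.68-fold). With equal medians 3 progenitor genes and 1 cell cycle gene were lower by 1.5-fold or more.

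Genes of immature OSN showed little difference. Their median was -0.17, and -0.01 after quantile normalization, with 2 of 31 higher and 2 lower by 1.5-fold or more. Stmn4, a stathmin that destabilizes microtubules, gave 5147 in GFP+ against 3087 in GFP- and 4405 in GFP+++ (1.67-fold higher) and Dcdc2a, a doublecortin family gene, 6755 in GFP+ against 4440.4 in GFP- and 3102 in GFP+++ (1.52-fold higher). Dcdc2a was under 1.5-fold with the median over probe sets, at 0.45 on the log2 scale. Marcks and Tuba1a, a membrane-actin linker and an alpha tubulin, gave 5632 in GFP+ and 8453 in GFP-, and 12749 in GFP+ and 19463 in GFP- (1.5-fold and 1.53-fold lower), and with quantile normalization the log2 folds were -0.42 and -0.11. Of the 28 OSN transcription factors on their list, Ebf4 was higher (2001 in GFP+ and 1174 in GFP-, 1.7-fold), while the nuclear factor I genes Nfib and Nfix gave 2056 in GFP+ against 3865 in GFP- and 501 in GFP+++, and 1743 in GFP+ against 2961 in GFP- and 455 in GFP+++ (1.88-fold and 1.7-fold lower). Zeb2, a factor that many stromal and glial cells also express, gave 134 in GFP+ against 284 in GFP- and 18.2 in GFP+++ (2.12-fold lower). Zeb2 was under 1.5-fold, at -0.37 on the log2 scale, with the median over probe sets. With the floor at the 65th percentile it was at -0.04.

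Connective tissue genes were lower in GFP+. Among 54 measured genes of fibroblasts and their matrix, 37 (68.5%) were at least 1.5-fold lower and 0 higher, with a median of -0.69 and a range that stopped short of 2-fold. Col1a2, a chain of type I collagen, gave 8570.3 in GFP+ against 14317 in GFP- and 847 in GFP+++ (1.67-fold), but with quantile normalization its log2 fold went from -0.74 to -0.37, under 1.5-fold, and genes this bright had a median of -0.42. Sparc, a collagen-binding matrix protein, gave 5185 in GFP+ against 9707 in GFP- and 322 in GFP+++ (1.87-fold), and Mgp, an inhibitor of calcification, 1273 in GFP+ against 2525 in GFP- and 60.7 in GFP+++ (1.98-fold). The proteoglycan gene Lum gave 1416 in GFP+ against 2567 in GFP- and 111 in GFP+++ (1.81-fold) and Col6a3 543 in GFP+ against 1059.9 in GFP- and 76.3 in GFP+++ (1.95-fold). For each of these 5 genes the GFP+ signal lay between the other 2, closer in fold to GFP- than to GFP+++.

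The lowest median of any list was that of bone, cartilage and muscle, -0.81, and 11 of its 18 genes passed 1.5-fold. Of the 18, 3 lay under the floor on 1 of the 2 arrays, which fixed their direction. Ibsp, bone sialoprotein, gave 1169.6 in GFP+ against 2523 in GFP- and 42.6 in GFP+++ (2.16-fold), Ctsk, the collagen protease of osteoclasts, 732 in GFP+ against 1294 in GFP- and 47.8 in GFP+++ (1.77-fold), and Col9a1, a cartilage collagen, 939 in GFP+ against 1697 in GFP- and 171 in GFP+++ (1.81-fold). Of 25 vessel wall genes, 7 were at least 1.5-fold lower, and the lowest log2 fold was -0.80. In this list, 5 genes lay under the floor on 1 of the 2 arrays, which fixed their direction. Acta2, smooth muscle actin, gave 3310.4 in GFP+ against 5612 in GFP- and 326 in GFP+++ (1.7-fold). Rgs5, a pericyte gene, gave 9177 in GFP+ against 14137 in GFP- and 3523 in GFP+++ (1.54-fold, but -0.23 on the log2 scale with quantile normalization). Cldn5, named above with the apical genes, is also on this list, at -0.70 on the log2 scale. Of 21 glial genes 10 were at least 1.5-fold lower, including Sox10, the factor of the glial lineage (202 in GFP+ against 336 in GFP- and 12.2 in GFP+++, 1.66-fold), and Fabp7, a fatty acid-binding protein of ensheathing glia (3631 in GFP+ against 5534 in GFP- and 1258 in GFP+++, 1.52-fold).

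**Figure D4:**
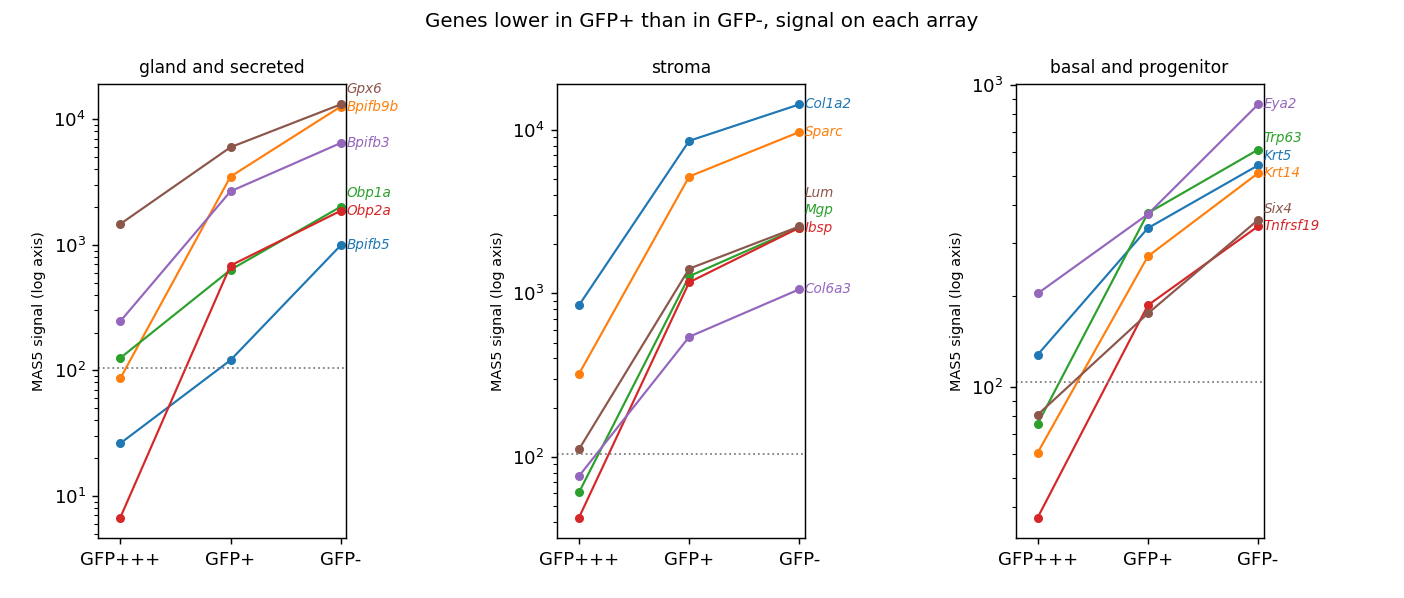
Signal of 6 genes each from glands, stroma and bone, and basal or progenitor cells on the GFP+++, GFP+ and GFP- arrays, on a logarithmic axis, 1 array per point, with the floor as a dotted line. Each of the 18 genes is lower in GFP+ than in GFP- and lower still in GFP+++, where Obp2a and Krt14 are among those under the floor.

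Several of the largest folds in the lower direction belonged to genes outside the lists. Ttr, transthyretin, a carrier of thyroid hormone and retinol made by choroid plexus and liver, gave 44 in GFP+ against 569 in GFP- and 14.1 in GFP+++, so that GFP- was the 1 array with a signal above the floor (at least 5.45-fold). Rab27b, a GTPase of regulated secretion, gave 138 in GFP+ against 434 in GFP- and 109 in GFP+++ (3.13-fold). Gfra2, a receptor for neurturin, gave 170.5 in GFP+ against 463 in GFP- and 30.1 in GFP+++ (2.72-fold), and Tac4, a tachykinin precursor, 339 in GFP+ against 848 in GFP- and 59.3 in GFP+++ (2.5-fold). Ptgds, a prostaglandin D synthase of meninges and other tissues, gave 391 in GFP+ against 978 in GFP- and 83.5 in GFP+++ (2.5-fold). Tpd52l1 and Sult6b1, a sulfotransferase family gene, were 2.51-fold and 2.5-fold lower, and Cyp1a1, a xenobiotic-metabolizing cytochrome, 2.41-fold (246 in GFP+ and 592 in GFP-). Kcne4, an accessory potassium channel subunit, gave 146 in GFP+ against 362 in GFP- and 11.8 in GFP+++ (2.48-fold). Of these genes, all but Rab27b were under the floor in GFP+++. The probe sets used for Ttr, Gfra2 and Sult6b1, like that of Tox2 above, are of the kinds that can bind more than 1 transcript. With the floor at the 65th percentile Tpd52l1, Sult6b1, Kcne4, Odam and Clec2d were under 1.5-fold, at -0.23, -0.04, -0.39, -0.06 and -0.26 on the log2 scale. Odam, an ameloblast-associated secreted protein, and Clec2d, a lectin-like ligand, were under the floor in GFP+ (54.4 and 103) and gave 287 and 329 in GFP-. Tmem200a differed from the other genes in this group in its GFP+++ signal, which lay above that of GFP+ (167 in GFP+ against 426 in GFP- and 232 in GFP+++, 2.55-fold lower in GFP+ than in GFP-).

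Immune cells did not move as 1 group. Of 39 macrophage genes 19 (48.7%) were at least 1.5-fold lower and 0 higher (median -0.58), with the complement gene C1qa at 1066 in GFP+ against 2063 in GFP- and 14.7 in GFP+++ (1.94-fold) and Fcgr3, an Fc receptor, at 458 in GFP+ against 908 in GFP- and 18.1 in GFP+++ (1.98-fold). Granulocyte genes had a median of 0.14, with 2 of 18 at least 1.5-fold higher and 0 lower. Of the 18, 6 lay under the floor on 1 of the 2 arrays, which fixed their direction. The median was 0.29 among those above the floor on both arrays. Ngp, a neutrophil granule protein, gave 1170.3 in GFP+ against 655 in GFP- and 14.1 in GFP+++ (1.79-fold higher), Mpo, myeloperoxidase, 205 in GFP+ against 84.4 in GFP- and 26.3 in GFP+++ (at least 1.96-fold higher), and the bright S100a8 and S100a9 had log2 folds of -0.04 and 0.27. The summed signal of the 18 granulocyte genes was 19581 in GFP+ and 17409.5 in GFP-, and the part of these cells in the other differences was not tested. The interferon-induced genes Ifit1 (1102 in GFP+ and 463 in GFP-, 2.38-fold) and Ifit2 (613 in GFP+ and 336 in GFP-, 1.82-fold) were higher, while 7 of 32 genes of that list were at least 1.5-fold lower, among them Rsad2 (534 in GFP+ and 942 in GFP-, 1.76-fold). Alas2, the first enzyme of red cell heme synthesis, gave 267 in GFP+ against 645 in GFP- and 49.7 in GFP+++ (2.41-fold lower), and Hba-a2, an alpha globin, 428 in GFP+ and 837 in GFP- (1.95-fold lower), while the median of the 14 erythroid genes was 0.00, and below 0 at -0.05 among those above the floor on both arrays.

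Signalling genes of growth and patterning were lower as well, with 26 of 65 (40%) at least 1.5-fold lower and 1 higher. Bmp4, a bone morphogenetic protein, gave 136 in GFP+ against 272 in GFP- and 34.7 in GFP+++ (2-fold), Igfbp2, a binding protein of insulin-like growth factors, 999 in GFP+ against 1987 in GFP- and 236 in GFP+++ (1.99-fold), and Igf1 517 in GFP+ against 925 in GFP- and 23.1 in GFP+++ (1.79-fold, but -0.48 on the log2 scale with the median over probe sets). The 1 higher gene was Cyp26b1, which degrades retinoic acid (427 in GFP+ against 245 in GFP- and 165 in GFP+++, 1.74-fold). Crabp1, a retinoic acid-binding protein, differed from the rest in being brightest in GFP+++ (5016 in GFP+ against 8564 in GFP- and 9638 in GFP+++, 1.71-fold lower in GFP+ than in GFP-).

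Lists of genes that all cells use mostly had medians near 0. The respiratory chain had a median of -0.01 over 67 genes, which turned to 0.13 and 0.14 with equal medians and with quantile normalization, and 1 of them passed 1.5-fold. The list of the tricarboxylic acid cycle, creatine kinases and related metabolic genes had a median of 0.09. Its members Me1 and Ppargc1a are not enzymes of the cycle itself. Me1, a malic enzyme, gave 422 in GFP+ and 194 in GFP- (2.18-fold higher). Ppargc1a, a regulator of mitochondrial content, gave 1324 in GFP+ and 781 in GFP- (1.7-fold higher). Eno2, the neuronal enolase, gave 1027 in GFP+ and 649 in GFP- (1.58-fold higher), and Hk2, an inducible hexokinase, 652 in GFP+ and 1066 in GFP- (1.64-fold lower). Cytosolic ribosomal proteins had a median of -0.47 that moved to -0.10 with quantile normalization, and the median of all genes was -0.14 for mean signals of 5000 to 10000 and -0.42 above 10000. Chromatin and splicing genes had a median of -0.20 with 2 of 53 higher and 4 lower by 1.5-fold or more, the highest being Dpf3, a subunit of neuronal chromatin remodelling complexes (390.1 in GFP+ against 178 in GFP- and 606 in GFP+++, 2.19-fold). Translation factors had a median of -0.17 over 41 genes. Lipid and cholesterol genes had a median of -0.02, turning to 0.12 with equal medians, while Scd1, a fatty acid desaturase, gave 356 in GFP+ and 753 in GFP- (2.12-fold lower) and Sc5d, an enzyme of sterol synthesis, 831 in GFP+ and 494 in GFP- (1.68-fold higher). With the median over probe sets Sc5d was under 1.5-fold, at 0.28 on the log2 scale. Chaperone and stress genes had a median of -0.07 that turned to 0.07 with equal medians and 0.04 with quantile normalization. Of 30 immediate early genes, which can mark handling of the tissue, 1 was higher and 2 were lower by 1.5-fold or more. Hspa1a, an inducible heat shock protein, gave 381 in GFP+ and 249.6 in GFP- (1.53-fold higher). Nr4a2 gave 135 in GFP+ and 334 in GFP- (2.47-fold lower) and Dusp6 1547 in GFP+ and 2483 in GFP- (1.61-fold lower). Nr4a2 was at -0.41 on the log2 scale with the median over probe sets and -0.28 with the floor at the 65th percentile, both under 1.5-fold. Annexins and small calcium-binding proteins, which many non-neuronal cells express, had a median of -0.49, with 7 of 18 lower, among them S100a10 (431 in GFP+ and 801 in GFP-, 1.86-fold) and Anxa6 (392 in GFP+ and 672 in GFP-, 1.71-fold).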

How the data were processed

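The deposited intensity values, 1 per probe set on a linear scale, are MAS5 signals, and the authors used that algorithm per the submitters' processing notes. Its version was not given in the sources used here. Labelling followed the manual for the Affymetrix Mouse Genome 430 2.0 array, per the labels' protocols. Of 45101 probe sets, 34958 had 1 symbol, 932 several and 9211 none.

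Each array was scaled to the same 2% trimmed mean, which the deposited intensity values already shared closely. Low values were raised to the floor, and log2 folds were computed with Python 3.11.15, numpy 2.4.6 and pandas 2.3.3. The steps were tested on simulated data. No detection calls were used, and 1 array a fraction limits the precision.

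The members, lists, rules and motifs were chosen with earlier results of these data known. Genes were named from the 20 largest folds and 10 brightest bounds in each direction, leaving out genes whose probe sets disagreed, and from list members past 1.5-fold or among the 4 brightest of their list, with receptors, Neurog1, Gap43 and Omp; the text gives part of them. Cep19 and Bbs7 were named by their promoters, after their values were seen. Alternatives were equal medians, quantile normalization, floors at the 40th and 65th percentile, the median over probe sets, leaving out probe sets that may bind several transcripts, and genes above the floor on both arrays. The X-box search was added after the data were seen.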

Additional observations from a re-analysis of the deposited data

How the results depend on the processing

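With equal medians, the numbers of genes higher and lower became 130 and 46 at 2-fold and 1077 and 458 at 1.5-fold. A floor at the 65th percentile gave 40 and 38 at 2-fold and 440 lower at 1.5-fold, since fewer genes can differ above it, and one at the 40th percentile gave 165 lower at 2-fold. Quantile normalization moved the medians of odorant signal transduction to 0.44, receptor trafficking and zone genes to 0.26 and cytosolic ribosomal proteins to -0.10. Equal medians moved granulocyte genes to 0.41, and the lower floor moved odorant receptors to 0.62. The following medians changed sign: dense core vesicle genes to 0.0468 without probe sets that may bind several transcripts and 0.0251 with both arrays above the floor, transmitter receptors to -0.14 and axon guidance to -0.014 with the lower floor, axon guidance to -0.023 with the median over probe sets, lymphocyte genes to 0.13 and erythroid genes to -0.0933 with the higher floor, erythroid genes to -0.0498 with both arrays above the floor, the respiratory chain to 0.13 with equal medians and 0.14 with quantile normalization, lipid genes to 0.12 with equal medians, and protein folding genes to 0.073 and 0.038 with these 2 scalings. For these sign changes the cause was not tested. The other 308 values of counts and list medians kept their direction, with counts within 1.5 times and medians within 0.24, the pooled SD of probe set folds within a gene, though some moved: genes at least 1.5-fold lower to 1192 with the lower floor, genes at least 1.5-fold higher to 407 with the higher floor, and the median of voltage-gated channels from 0.36 to 0.54 with the higher floor. The order of the lists was not fixed: voltage-gated channels exceeded synaptic vesicle genes with the higher floor, with the median over probe sets and with both arrays above the floor. Of the 196 genes named at 1.5-fold or more, 64 fell under 1.5-fold in at least 1 setting that still compared them, and 0 changed sign. They were 26 with the higher floor, 24 with equal medians, 16 with the median over probe sets, 15 with quantile normalization and 1 without ambiguous probe sets. The 26 include Cftr, Dnah9, Dpf3, Dync1i1, Hspa1a, Kcna1, Kcna6, Six4 and Sox10. Genes that a setting no longer compared are not counted as lost. Examples are Bmp4, Kcnd2, Plxna2 and Sema3c with the higher floor, and Acta2 and Cftr without ambiguous probe sets. Of the 18 genes named under 1.5-fold, 9 changed sign in at least 1 setting, and Omp passed 1.5-fold with equal medians and with quantile normalization. No paired analysis was possible because each fraction was measured once and nothing was tested. Signals near the floor limit every comparison of dim genes.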
